A study of Homo sapiens with 3 samples.

Results

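Binding of RBM17 (also called SPF45) to RNA was read by eCLIP in cells of K562, an established chronic myeloid leukemia line. The splice site peaks described here are the 217 of 866 reproducible RBM17 peaks whose first listed region was the 5’ splice site (5’-SS, 190 peaks) or the 3’ splice site (3’-SS, 27 peaks), in the study's own list of peak regions. They lay in 171 of the 432 gene entries with a peak, 152 with a 5’-SS peak and 27 with a 3’-SS peak, of which 8 had both. Their members were joined to the deposited peaks by chromosome, start, end and strand, and none was lost. The groups were 2 RBM17 eCLIP replicates, precipitated with a mixture of antibodies against RBM17, and 1 size-matched input, a small part of the mix of beads, antibody and lysate set aside before washing. No treatment or genetic change is given for the cells. The paper calls the replicates biological and does not say whether they were separate cultures. A single cell line and a single input limit what the fold of any peak can be compared with.

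Introns are removed from pre-mRNA between a 5’-SS, where the exon ends and U1 snRNP first pairs with the RNA, and a 3’-SS, where U2AF reads the pyrimidine tract and the AG before the next exon. U2 snRNP binds the branch point just upstream of the 3’-SS. RBM17 is an RNA-binding protein of the early spliceosome that contacts U2 snRNP proteins through its U2AF homology motif and is known as a regulator of 3’-SS choice and of the splicing of short introns.

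In eCLIP, ultraviolet light links a protein to the RNA it touches, and a peak is a stretch of RNA that is recovered more often with the protein than in the input. Each reproducible peak had a single −log10 p and log2 fold against the input, combined from the replicates (the combined log2 fold below) and given with no replicate error. How they were combined is not stated. In some peaks the −log10 p equalled that of replicate 1, as in a LUC7L peak with 17.37, so it is not to be read as a joint p. In replicate 1, each of the 137095 clusters, the stretches of piled-up reads from which peaks were drawn, had its own log2 fold against the input, and the depth is unknown. Replicate 2 gave a number of reads for each of its 119066 clusters, with a median of 5 and a highest value of 8215, and no value over the input. Since the study holds 1 condition and 1 input, no difference between peaks was tested, and intervals around medians (order statistics) and shares (exact Clopper-Pearson) are 95% intervals that cover the spread or the count of peaks only. Positions of peaks are in hg19, since clusters reached 249211903 on chromosome 1, which ends at 248956422 in hg38.

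A peak entered by the first of its listed regions, and the order of that list favours the 5’-SS. The list put the 5’-SS before the CDS and the proximal intron, so that a peak with a single base past the exon end counted as a 5’-SS peak, whereas it put the 3’-SS after the CDS, the untranslated regions and the proximal intron. Of the 192 peaks with any base in a 5’-SS, 2 had it listed after another region (1.04%, interval 0.126 to 3.71%). Of the 122 peaks with any base in a 3’-SS, 95 had it listed after another region (77.9%, interval 69.5 to 84.9%), among them 22 that are 5’-SS peaks. By first listed region, 87.6% of splice site peaks were at the 5’-SS (190 of 217, interval 82.4 to 91.6%). The share was 65.8% when each peak went to the region with most of its bases, and 61.1% when each listed splice site was counted. The excess of 5’-SS over 3’-SS peaks was thus smaller with both other rules, and its direction was the same.

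The region list does not say how far from an exon its splice site regions reach, which was measured from the peaks themselves. In NKTR, CDK5RAP3 and NELFCD, a peak that crossed the exon edge and another that crossed the inner edge of the splice site region placed the same edge of the exon, with a difference of 0 nt when the region was taken as 100 nt of intron. The 5’-SS here is therefore the first 100 nt of an intron and the 3’-SS the last 100 nt, much wider than the bases that the snRNPs read.

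The 190 5’-SS peaks held 12236 bases, of which 62.2% were in the 5’-SS window, 18.4% in the proximal intron beyond it, 14.7% in exons and 4.66% in the 3’-SS window of the same short intron. In all, 85.3% of their bases were intronic. The exonic bases were 1286 of CDS in 33 peaks and 514 of 5’-UTR in 10 peaks. The peaks fell into a few types. In 62 the whole peak was inside the window, 64 ran on into the proximal intron, 42 crossed the exon end (32 into CDS and 10 into 5’-UTR), 15 covered the 5’-SS and 3’-SS windows of an intron too short to hold anything between them, 6 reached both windows across a short proximal intron, and 1, in the deubiquitinase gene USP19, held 54 bases of 5’-SS, 9 of CDS and 58 of 3’-SS. The 27 3’-SS peaks, with 1462 bases, were inside the 3’-SS window without exception, as the order of the list requires.

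The peaks that reached both windows show the bases at stake. They lie in introns so short that the positions of both splice sites follow from the peak, and the length of the intron singled out 1 intron of the gene's main transcript in GENCODE v44. Introns of the region list were 1 nt shorter than those of the annotation, so that peak edges are good to 1 base. Below, the whole intron is given from its first to its last base, with the bases of the peak in capitals, for 5 of these 6 introns, in HNRNPA1 and HNRNPH1 (hnRNP proteins that bind pre-mRNA), MCM3AP (an mRNA export factor), DAZAP1 (an RNA-binding protein) and NSUN2 (an RNA methyltransferase).
HNRNPA1 (hg38 chr12:54282875-54283078, plus strand): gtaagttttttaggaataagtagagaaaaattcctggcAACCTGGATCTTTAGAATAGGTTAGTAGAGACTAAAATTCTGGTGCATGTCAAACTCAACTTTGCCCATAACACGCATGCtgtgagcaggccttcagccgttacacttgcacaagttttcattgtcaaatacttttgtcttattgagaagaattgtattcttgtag
HNRNPH1 (hg38 chr5:179621036-179621241, minus strand): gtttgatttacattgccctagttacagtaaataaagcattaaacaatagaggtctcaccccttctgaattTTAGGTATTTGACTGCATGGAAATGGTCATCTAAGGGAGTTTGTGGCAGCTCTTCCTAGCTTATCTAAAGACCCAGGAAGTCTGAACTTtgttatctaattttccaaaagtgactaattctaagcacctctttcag
MCM3AP (hg38 chr21:46246405-46246627, minus strand): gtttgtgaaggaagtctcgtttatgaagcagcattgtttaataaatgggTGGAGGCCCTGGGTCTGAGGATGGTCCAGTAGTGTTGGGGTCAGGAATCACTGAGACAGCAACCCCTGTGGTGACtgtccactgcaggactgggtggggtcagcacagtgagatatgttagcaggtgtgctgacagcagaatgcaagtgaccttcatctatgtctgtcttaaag
DAZAP1 (hg38 chr19:1429997-1430221, plus strand): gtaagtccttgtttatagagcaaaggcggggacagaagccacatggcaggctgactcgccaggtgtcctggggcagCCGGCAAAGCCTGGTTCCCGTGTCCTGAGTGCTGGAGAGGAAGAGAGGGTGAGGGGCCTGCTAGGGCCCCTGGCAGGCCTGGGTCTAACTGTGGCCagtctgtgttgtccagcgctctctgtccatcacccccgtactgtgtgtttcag
NSUN2 (hg38 chr5:6606913-6607199, minus strand): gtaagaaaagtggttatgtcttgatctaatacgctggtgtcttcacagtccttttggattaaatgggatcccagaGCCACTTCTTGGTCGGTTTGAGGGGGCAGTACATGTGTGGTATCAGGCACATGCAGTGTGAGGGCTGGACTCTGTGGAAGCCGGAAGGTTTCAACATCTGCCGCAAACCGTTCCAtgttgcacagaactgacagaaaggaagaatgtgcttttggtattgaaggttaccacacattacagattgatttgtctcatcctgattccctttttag
In none of these 5 introns did the peak include either splice site itself. The peak began between base 39 (HNRNPA1) and base 77 (DAZAP1) of the intron, and it stopped at base 118 of 204 in HNRNPA1 and at base 159 of 206 in HNRNPH1, so that the middle of the intron was covered and both ends were free. Only an intron with both windows in reach of 1 peak could enter this type. Such a peak had to cover the stretch between the windows and could hold no exon base. The covered middle and the free exon edges are thus partly set by the type. HNRNPH1 had the most reads of all splice site peaks, 164 in replicate 2, with a combined log2 fold of 3.48 and a replicate 1 log2 fold of 3.28. NSUN2 had the highest log2 fold of the 6, 4.62, with a replicate 1 log2 fold of 4.58 and 32 reads in replicate 2. HNRNPA1 was lowest, with a log2 fold of 3.10, a replicate 1 log2 fold of 3.56 and 34 reads in replicate 2.

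A further 3 short introns held 2 reproducible peaks each, and the distance between the edges that they placed matched 1 intron of the main transcript. The introns of CDK16 (a cyclin-dependent kinase), H2AFZ (histone variant H2A.Z) and SMARCC2 (a chromatin remodeling subunit) are shown whole, with the bases of both peaks in capitals.
CDK16 (hg38 chrX:47226028-47226278, plus strand): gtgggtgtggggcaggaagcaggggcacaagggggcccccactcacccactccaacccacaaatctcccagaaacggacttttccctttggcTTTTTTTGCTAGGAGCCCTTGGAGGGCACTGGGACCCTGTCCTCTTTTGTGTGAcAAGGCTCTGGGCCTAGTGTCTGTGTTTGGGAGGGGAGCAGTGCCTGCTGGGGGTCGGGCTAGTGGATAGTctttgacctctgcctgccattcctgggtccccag
H2AFZ (hg38 chr4:99949387-99949662, minus strand): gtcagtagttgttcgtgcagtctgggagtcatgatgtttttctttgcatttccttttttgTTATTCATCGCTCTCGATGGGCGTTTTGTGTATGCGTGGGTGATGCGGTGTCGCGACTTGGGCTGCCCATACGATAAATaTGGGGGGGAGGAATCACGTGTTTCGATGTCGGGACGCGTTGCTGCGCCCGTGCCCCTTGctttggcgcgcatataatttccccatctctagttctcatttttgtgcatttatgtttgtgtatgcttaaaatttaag
SMARCC2 (hg38 chr12:56178535-56178809, minus strand): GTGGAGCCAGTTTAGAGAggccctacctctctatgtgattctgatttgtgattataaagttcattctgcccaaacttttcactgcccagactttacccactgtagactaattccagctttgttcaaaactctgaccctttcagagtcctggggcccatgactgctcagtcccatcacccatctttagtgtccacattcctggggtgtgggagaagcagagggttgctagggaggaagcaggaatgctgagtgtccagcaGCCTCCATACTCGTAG
In CDK16 and H2AFZ the pair of peaks abutted in the middle of the intron. The lower-case base between them is no gap and comes from the difference of 1 nt between the region list and the annotation. In SMARCC2 1 peak crossed each edge of the intron with the middle free. The CDK16 5’-SS peak had a log2 fold of 3.13 and its neighbour at the 3’-SS side 4.63. In SMARCC2 the peak over the exon end had a log2 fold of 3.32 and that over the next exon start 4.21.

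In all, 46 introns of 26 genes were matched, 40 by spacing and 6 by length, and they held 52 peaks, 32 of them splice site peaks. The spacing of placed edges was tried in 32 genes and fitted the main transcript in 25. It fitted nowhere in the others, among them HNRNPA1, whose intron shown above therefore rests on length alone. Of the 46, 45 began with GT and ended with AG and 1, in BRD9 (a bromodomain protein), began with GC. All were taken from annotated introns, so these ends do not show whether a match was right. The 5’-SS letters GTNAGT, read in the sense strand at the first intron base, were found in 23.9% of the matched introns (11 of 46, interval 12.6 to 38.8%) and in 29.9% of the 183943 introns of main protein-coding transcripts. Matched introns were short: the 40 found by spacing had a median of 366.5 nt against 1559 nt over all introns. Of these, 40.0% were at most 300 nt long against 17.1%. In some, such as that of CDK16, the matched spacing was that between both edges of the intron, so length was part of the match. Spacing could be used only in genes with 2 or more placed edges, so the matched introns are no sample of all introns with a peak. The first 100 intron bases had a median G share of 31.0% in the matched introns and of 24.0% over all introns. Within the introns, 18 of the 24 5’-SS peaks with at least 20 intron bases held a larger share of G than the rest of the same intron, with medians of 32.3% in the peak and 25.7% outside it. The rest includes the 3’ end of the intron with its pyrimidine tract, so the position in the intron was not matched. Some genes, such as SRSF7 and DGCR8, gave more than 1 of the 24 peaks. The share was 51.1% against 22.9% in a HNRNPH3 peak and 49.4% against 22.8% in a LUC7L peak, which are among the largest differences. In the other 6 peaks the share was not larger than outside, and the difference over the 24 ranged from −15.7 to +28.2 percentage points.

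At the exon end itself, 43 of the 190 5’-SS peaks included exon (22.6%, interval 16.9 to 29.2%). The 42 with exon and 5’-SS alone held a median of 38 exon bases, with a range of 4 to 126, and a median of 23.5 intron bases, with a range of 1 to 89. In 10 of them at most 2 bases were intronic, among them the peak of RBM39, an SR-like splicing factor, with 53 exon bases and 1 intron base. Examples are shown from the last exon bases on, up to 20, with peak bases in capitals and the intron starting at the GT, in KIF22 (a kinesin), LUC7L (a U1 snRNP-associated factor), HNRNPH3 and PI4KA (a lipid kinase).
KIF22 (hg38 chr16:29798728-29798774, plus strand): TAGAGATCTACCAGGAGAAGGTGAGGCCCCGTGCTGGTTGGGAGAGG
LUC7L (hg38 chr16:192921-192946, minus strand): GAGGAGCGTCTGAGCAGGAGGTgagc
HNRNPH3 (hg38 chr10:68338668-68338726, plus strand): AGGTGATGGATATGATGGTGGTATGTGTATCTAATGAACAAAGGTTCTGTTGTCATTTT
PI4KA (hg38 chr22:20765579-20765604, minus strand): ATTCGCTGTGGAGGGCTCAGGtaggg
These peaks differ in how much of the intron they hold. KIF22 and HNRNPH3 ran 27 and 39 nt into the intron, and LUC7L and PI4KA stopped after its second and first base. The log2 fold was 3.66 in KIF22, 3.34 in LUC7L, 3.38 in HNRNPH3 and 3.63 in PI4KA. Replicate 1 log2 folds were 3.71, 3.69, 3.90 and 3.68 in the same order, and replicate 2 held 15, 14, 76 and 32 reads.

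The 3’ side showed less intron. Of the 122 peaks with any 3’-SS base, 40 crossed the exon start (32.8%, interval 24.6 to 41.9%). The 39 with exon and 3’-SS alone, which the list calls CDS or 3’-UTR peaks, held a median of 36 exon bases and 9 intron bases, so that intron bases were fewer than at exon ends. At most 10 intron bases were present in 21 of the 39 peaks over exon starts and in 16 of the 42 over exon ends. The summit of the replicate 2 cluster, the narrow stretch that the peak caller marked as its top, lay in the exon in 35 of 39 peaks over exon starts (89.7%) and in 27 of 42 over exon ends (64.3%). The median log2 fold was 3.72 over exon starts and 3.56 over exon ends. The difference between the 2 sides was not tested. The last 30 intron bases and first 20 exon bases are shown for HDAC6 (a tubulin deacetylase), MLLT10 (a DOT1L partner), SRRM2 (a scaffold of nuclear speckles) and PPIL2 (a cyclophilin), with peak bases in capitals, since they hold the AG and the tract before it.
HDAC6 (hg38 chrX:48803098-48803147, plus strand): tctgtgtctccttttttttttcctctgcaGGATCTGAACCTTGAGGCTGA
MLLT10 (hg38 chr10:21534615-21534664, plus strand): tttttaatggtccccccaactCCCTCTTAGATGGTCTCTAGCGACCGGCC
SRRM2 (hg38 chr16:2759110-2759159, plus strand): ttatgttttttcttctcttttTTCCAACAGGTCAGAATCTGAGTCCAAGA
PPIL2 (hg38 chr22:21686862-21686911, plus strand): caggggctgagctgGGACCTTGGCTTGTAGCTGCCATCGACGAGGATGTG
The HDAC6 peak began at the last intron base, and those of MLLT10 and SRRM2 held no more than the last 9 intron bases, with most of the pyrimidine-rich stretch in lower case. The PPIL2 peak reached further into an intron end with few pyrimidines in a row. These examples do not stand for all 39 peaks, of which 12 held more than 20 intron bases. In GIGYF1, not shown, the peak began 49 bases before the exon start and covered a pyrimidine-rich intron end.

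**Figure D1:**
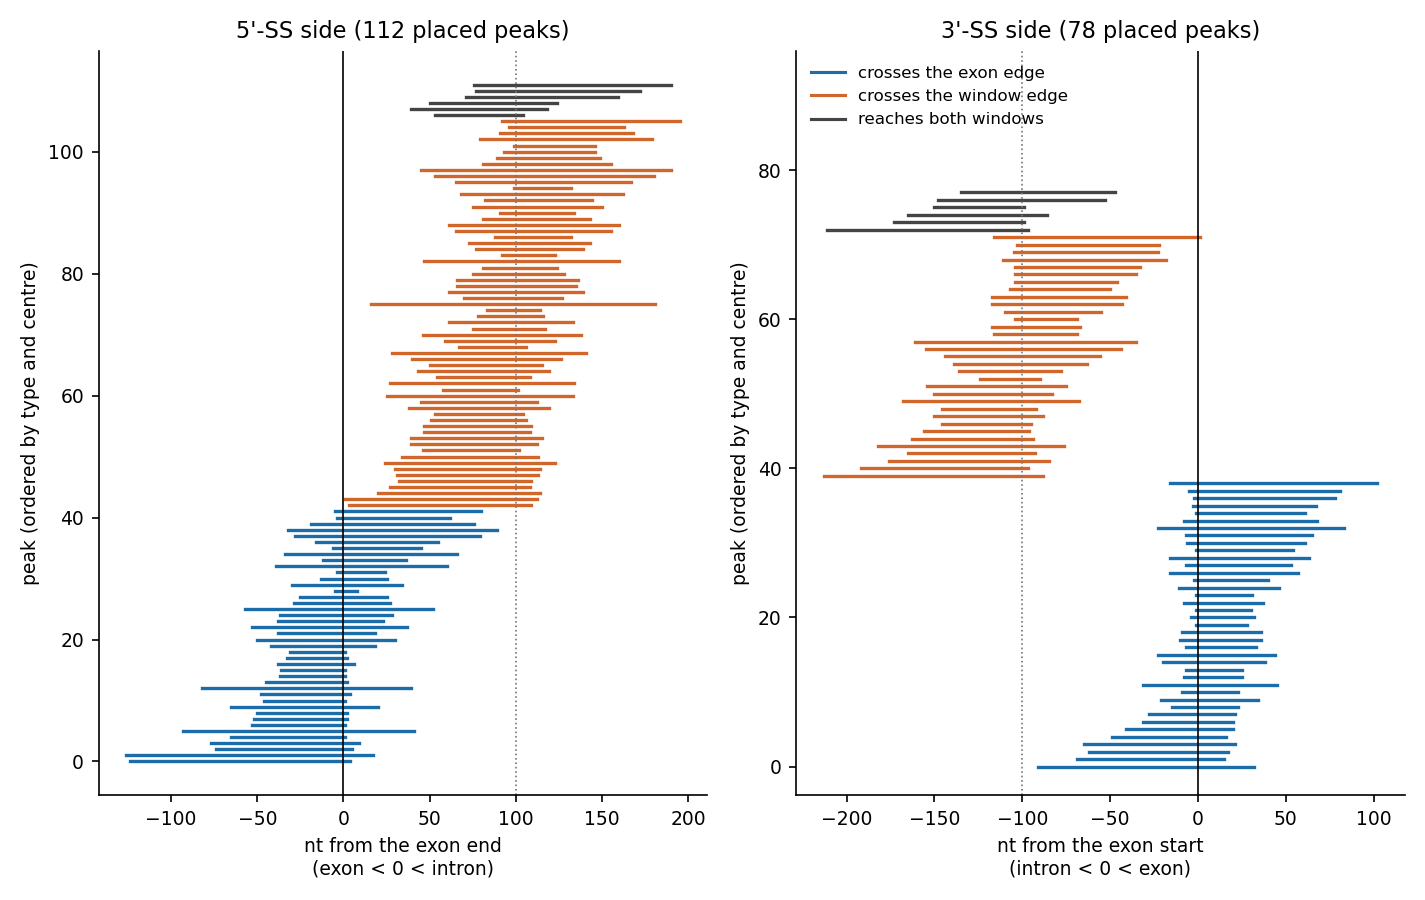
Reach of the reproducible peaks whose bases fixed an exon edge, with nt from the exon end (left, 112 peaks) or exon start (right, 78 peaks) on the x axis and 1 line a peak. Blue lines cross the exon edge, orange lines cross the inner edge of the 100-nt splice site region (dotted), and grey lines reach both regions of a short intron. Most blue lines on the right reach further into the exon than into the intron.

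Peak bases fixed the exon end for 112 of the 190 5’-SS peaks, counted from the exon end with negative values in the exon. The centres had a median of +77.75 nt, and the one farthest into the exon was at −60 nt, in YY1AP1. Counted in steps, 27 centres were in the exon, 15 between 0 and 50 nt of intron, 39 between 50 and 100 nt and 31 between 100 and 150 nt. The placing favours peaks at 0 and 100 nt, since only a peak across an edge could be placed, so these counts do not give the density along the intron. The centre nearest the exon end was that of NFRKB, an INO80 subunit, at 0 nt, whose peak reached 25 nt to each side with a log2 fold of 4.50. The 64 peaks that ran across the window edge had a median centre of +97.25 nt and the 6 spanning peaks of +100.5 nt. Among those 64, only MED13 (a Mediator subunit), with bases 1 to 112, and TMEM63A (a membrane channel protein), with bases 3 to 109, began within the first 5 bases of the intron. By step, the median log2 fold was 3.56 in the exon, 3.56 between 0 and 50 nt, 3.90 between 50 and 100 nt and 3.77 between 100 and 150 nt.

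The 5’-SS peaks that ran past the window include all 3 of SRSF7, an SR protein whose own transcript carries a regulated poison exon. For 2 of the 3, and for LUC7L, the RNA is given from the first intron base to the end of the peak, with peak bases in capitals.
SRSF7 (hg38 chr2:38749421-38749528, minus strand): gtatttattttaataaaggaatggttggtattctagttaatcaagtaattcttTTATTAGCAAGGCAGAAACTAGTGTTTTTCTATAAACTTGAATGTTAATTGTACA
SRSF7 (hg38 chr2:38751095-38751228, minus strand): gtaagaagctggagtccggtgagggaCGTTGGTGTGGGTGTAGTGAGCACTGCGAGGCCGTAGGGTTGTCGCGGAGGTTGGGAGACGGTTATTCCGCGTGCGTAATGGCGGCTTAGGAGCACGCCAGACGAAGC
LUC7L (hg38 chr16:229165-229278, minus strand): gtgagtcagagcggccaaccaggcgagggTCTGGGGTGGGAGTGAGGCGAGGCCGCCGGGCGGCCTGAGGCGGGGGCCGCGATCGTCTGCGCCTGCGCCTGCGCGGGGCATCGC
In each of the 3 introns shown, the first 26 bases or more of the intron were outside the peak. The 3 SRSF7 peaks had log2 folds of 4.33, 3.16 and 3.63 in order along chromosome 2, of which the last 2 are those shown, with replicate 1 log2 folds of 4.83, just under 3 and 3.85, and 17, 29 and 34 reads in replicate 2. Replicate 1 ranked the first of them highest and replicate 2 held the fewest reads there. LUC7L had a log2 fold of 4.56, a replicate 1 log2 fold of 4.28 and 81 reads in replicate 2.

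**Figure D2:**
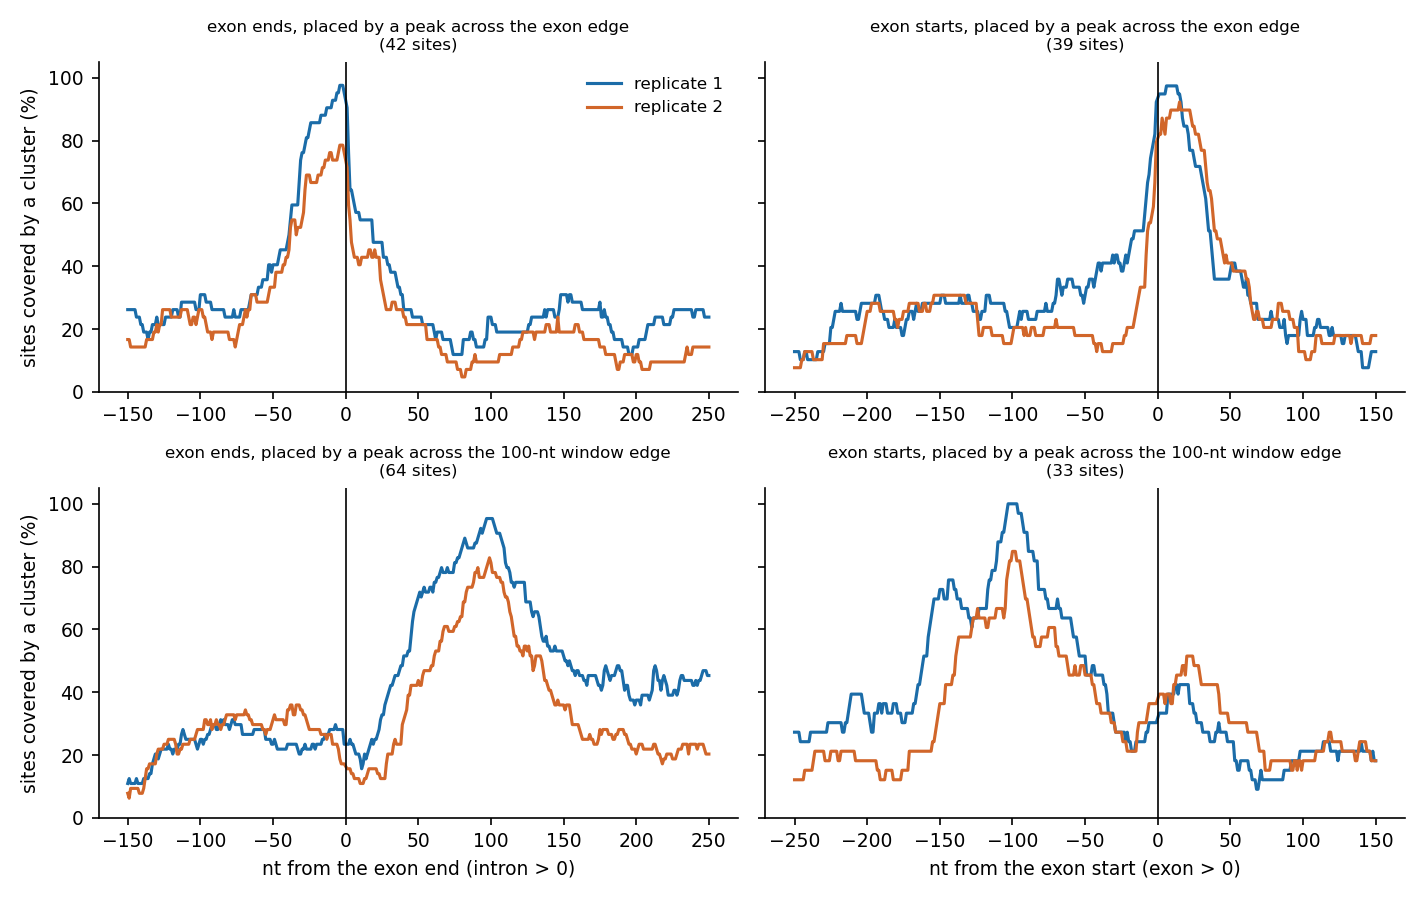
Share of placed exon edges covered by any cluster of replicate 1 (blue) or replicate 2 (orange), as a percentage, at each base around exon ends (left) and exon starts (right). The upper row holds edges placed by a peak across the exon edge (42 and 39 sites) and the lower row those placed across the 100-nt window edge (64 and 33 sites). The peak at the edge that placed a site is high by construction. In the lower row the peak that placed a site held no listed exon base. Clusters were counted with or without enrichment over the input.

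All clusters around these exon edges, most of which are no reproducible peak, were then read in each replicate. Around the 42 exon ends with a peak across them, 85.7% had a replicate 1 cluster and 66.7% a replicate 2 cluster at base −20, in the exon. At base +20, in the intron, the shares were 47.6% and 45.2%, and at +50 they were 23.8% and 21.4%. Around the 39 exon starts, the shares at base −20, in the intron, were 43.6% in replicate 1 and 20.5% in replicate 2, against 84.6% and 89.7% at base +20 in the exon. These shares largely restate the reach of the peaks that placed the edges. The edges placed at 100 nt of intron were fixed by peaks with no listed exon base. Low coverage in the intron next to the exon is therefore partly built in. Clusters were counted with or without enrichment over the input, so coverage in the exon need not be binding. Of the 33 exon starts, 42.4% had a replicate 1 cluster and 51.5% a replicate 2 cluster at base +20 of the exon, against 24.2% and 21.2% at base −20, so that coverage fell and rose again across the 3’-SS. Of the 64 exon ends, 23.4% and 28.1% were covered at base −20, and 16 and 10 of the 64 at base +20. At 200 nt of intron, 37.5% and 20.3% of them were still covered.

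Values of the 2 sites overlapped over most of their range. The combined log2 fold was 3.04 in the lowest of the 190 5’-SS peaks, 3.87 at the median (interval 3.77 to 4.07) and 6.58 in the highest, and 3.06, 3.69 (interval 3.32 to 4.29) and 4.92 in the 27 3’-SS peaks. The medians differed by less than the width of the 3’-SS interval. The median over all 866 peaks was 3.80, that of proximal intron peaks 3.89 and that of CDS peaks 3.68. In replicate 1, the log2 fold was 2.11, 4.04 (interval 3.89 to 4.22) and 10.09 for the lowest, median and highest 5’-SS peak, and 2.81, 3.89 (interval 3.28 to 4.32) and 5.65 for 3’-SS peaks. Replicate 2 held 8, 19 (interval 18 to 22) and 164 reads for 5’-SS peaks and 10, 25 (interval 16 to 34) and 54 reads for 3’-SS peaks. The intervals of the sites overlapped for each measure, and the order of the medians turned with the rule. With the region of most bases, median combined log2 folds were 4.03 for 5’-SS and 4.17 for 3’-SS peaks, and with each listed splice site counted they were 3.87 and 3.89. Replicate 1 medians turned likewise, to 4.17 against 4.26 and 4.02 against 4.04. The order of the replicate 2 medians turned for peaks whose log2 fold reached 4, with 18 and 15 reads. Median lengths were 60.5 bp for 5’-SS peaks (range 8 to 166 bp) and 52 bp for 3’-SS peaks (range 11 to 90 bp).

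**Figure D3:**
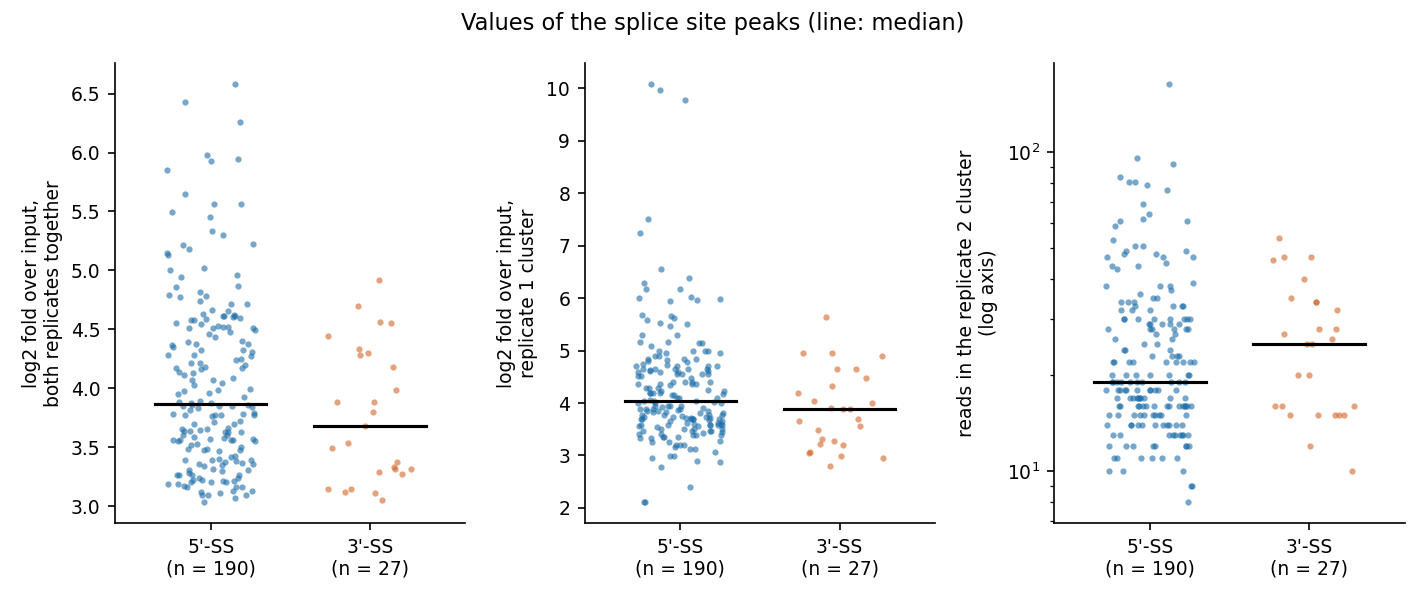
Values of each 5’-SS peak (blue, n = 190) and 3’-SS peak (orange, n = 27): combined log2 fold against the input, log2 fold of the overlapping replicate 1 cluster, and reads in the overlapping replicate 2 cluster on a log axis. Horizontal lines are medians, which are 3.87 and 3.69, 4.04 and 3.89, and 19 and 25.

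The replicates were compared through the clusters that overlap each peak on the same strand. All 217 peaks had a cluster in both, as a list of reproducible peaks must, and in 84.8% the clusters of both covered at least 50% of the peak. The interval of the peak was exactly that of the replicate 1 cluster in 115 of 190 5’-SS peaks (60.5%) and that of the replicate 2 cluster in the other 75. At the 3’-SS the counts were 15 and 12. A replicate 1 log2 fold and −log10 p of at least 3 were found for 181 of 190 5’-SS peaks (95.3%) and 24 of 27 3’-SS peaks (88.9%), against 5.35% of all replicate 1 clusters. Nothing is read from that contrast, since enrichment chose the peaks. The 12 that missed it in replicate 1 had log2 folds from 2.11 to just under 3. The lowest were COCH with 2.11, U2AF1 with 2.12 and DGCR8, a microRNA processing factor, with 2.39, where replicate 2 held 18, 20 and 92 reads. The replicate 1 cluster shared 1 bp with the COCH peak, 29 bp with that of U2AF1 and 91 bp with that of DGCR8, so the COCH value describes a neighbouring stretch. Across the 217 peaks, the combined log2 fold and that of replicate 1 had a Spearman's rho of 0.760, and the former includes the latter. The replicate 1 log2 fold and the replicate 2 reads had a rho of −0.309. Both are descriptions over peaks that share libraries, and some share a cluster.

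The median enrichment of 5’-SS peaks differed by what the peak covered. The median log2 fold was 4.20 (interval 3.88 to 4.51) in the 62 peaks inside the window and 3.56 (interval 3.36 to 3.64) in the 42 that crossed the exon end. All peaks share the same libraries, and the 62 include abutting pieces of a single stretch, as in HSP90AA1 and MAN2A2, so these intervals are no test. It was 3.89 (interval 3.66 to 4.24) in the 64 that ran into the proximal intron and 4.52 (interval 3.58 to 4.61) in the 15 that covered both splice site windows. Replicate 1 gave the same order, with median log2 folds of 4.21, 3.73, 4.16 and 4.71. Reads in replicate 2 did not follow it, with medians of 18, 22.5, 22 and 15. Peaks with a log2 fold under 3 are not in the list, so that the types can differ only above it. Of the 85 5’-SS peaks whose log2 fold reached 4, 8.24% crossed the exon end, against 22.6% of all 190. Peaks on the 3’ side went the same way. Their median log2 fold was 3.72 in the 39 with 3’-SS and exon and 4.34 in the 33 with 3’-SS and proximal intron. The difference between the types was not tested.

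**Figure D4:**
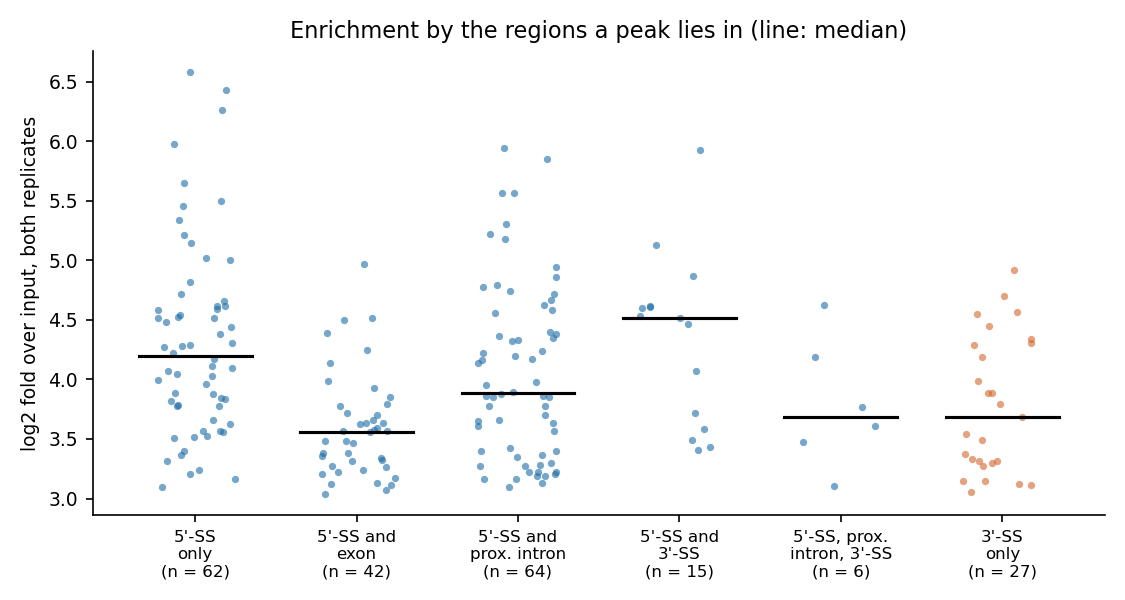
Combined log2 fold against the input (y axis) for each splice site peak, grouped by the regions that its bases lie in. Lines are medians: 4.20 inside the 5’-SS window (n = 62), 3.56 with exon (n = 42), 3.89 with proximal intron (n = 64), 4.52 with both splice site windows (n = 15), 3.69 in spanning peaks (n = 6) and 3.69 in the 3’-SS window (n = 27).

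The highest log2 folds at the 5’-SS were in HSP90AA1, which encodes the stress-inducible cytosolic HSP90. Its 3 peaks abutted each other at chr14:102552000-102552018, chr14:102552019-102552026 and chr14:102552027-102552038, all inside 1 window, with log2 folds of 6.58, 6.43 and 6.26. Their replicate 1 log2 folds were 10.09, 9.96 and 9.78, each with a −log10 p of 400, the highest in the file, and they were the only members at that limit. The 3 overlapped the same replicate 2 cluster of 19 reads, and the single −log10 p given for each peak was 4.07, 3.49 and 4.03. The peaks are thus 3 intervals of 1 stretch of RNA, with few reads in replicate 2. CALR (calreticulin, a chaperone of the endoplasmic reticulum) followed with a log2 fold of 5.98 at chr19:13050060-13050092, a replicate 1 log2 fold of 3.19 and 18 reads in replicate 2. GOLGA2 (a golgin) had a log2 fold of 5.95 at chr9:131025196-131025238, a replicate 1 log2 fold of 7.51 and 13 reads in replicate 2.

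At the 3’-SS the highest log2 fold was in P4HB, the protein disulfide isomerase, with 4.92 at chr17:79803119-79803189, a replicate 1 log2 fold of 4.65 and 20 reads in replicate 2. CALR followed with 4.70, TRMT2A (a tRNA methyltransferase) with 4.57, PLEC (plectin) with 4.55 and USP15 (a deubiquitinase) with 4.45. Their replicate 1 log2 folds were 5.65, 4.65, 4.94 and 4.48, and replicate 2 held 16, 15, 12 and 10 reads. The most reads at a 3’-SS were the 54 of ACTB, the actin of the cytoskeleton, whose log2 fold of 3.06 was the lowest of the 27.

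Of the 171 gene entries, 134 had 1 splice site peak, 30 had 2, 6 had 3 and HNRNPA1 had 5. The 5 of HNRNPA1, the hnRNP that represses many exons, were all at the 5’-SS and touched a 5’-UTR exon end, an intron of at most 201 nt and the spanned intron shown above. In order along chromosome 12, their log2 folds were 3.13, 3.57, 4.47, 3.10 and 5.02. Replicate 1 log2 folds were 3.73, 4.10, 4.83, 3.56 and 4.62, and replicate 2 held 23, 22, 22, 34 and 26 reads, so that reads varied less than folds. HMGN2 and HMGB2, chromatin proteins of the HMG families, had 3 each. In HMGN2 the pair of peaks in 1 intron had log2 folds of 5.65 and 5.30 and the third, in another, 3.24, which held the most reads, 84 against 69 and 28. HMGB2 had log2 folds of 4.48, 5.56 and 3.52, with replicate 1 log2 folds of 5.29, 6.30 and 4.39. MAN2A2 (a Golgi mannosidase) had an abutting pair with log2 folds of 4.52 and 4.82 and a peak over an exon end with 3.56. NKTR (a cyclophilin with an RS domain) had 3 peaks of nearly equal log2 fold, 3.48, 3.29 and 3.57. In all, 6 pairs of splice site peaks abutted with a gap of 0 bp, so 217 peaks are fewer sites than that.

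**Figure D5:**
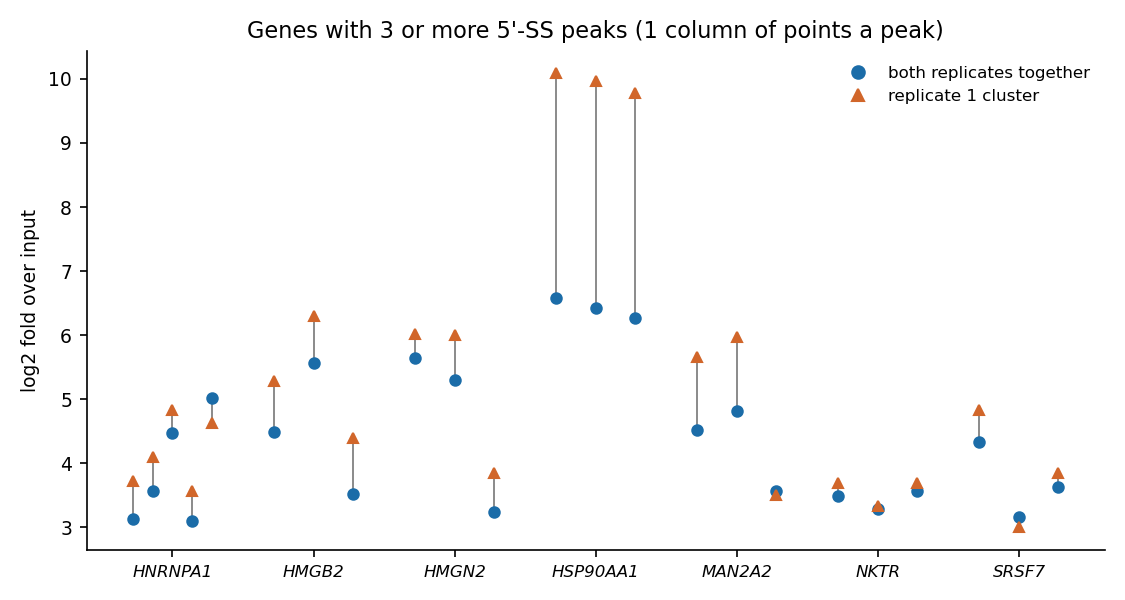
Combined log2 fold against the input (blue circles) and for the replicate 1 cluster (orange triangles) of each peak in the 7 genes with 3 or more splice site peaks, all at the 5’-SS. The 3 HSP90AA1 peaks stand at 9.78 to 10.09 in replicate 1 and at 6.26 to 6.58 in the combined value.

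By first listed region, both sites had a peak in 8 genes: ACADVL (a mitochondrial acyl-CoA dehydrogenase), CALR, DHX30 (an RNA helicase), GSE1, PABPC4 (a poly(A)-binding protein), SETD5, TMEM214 and USP15. The gap between the peaks was 79 bp in CALR, 104 bp in TMEM214, 212 bp in ACADVL and 6196 bp in DHX30. The 5’-SS peak was upstream in 7 of the 8, and in SETD5 the 3’-SS peak was upstream by 278 bp. The log2 fold was higher at the 5’-SS in 7 of the 8 genes, by 0.02 in ACADVL to 1.33 in GSE1, and lower in USP15, with 3.56 against 4.45. In replicate 1 it was also higher in 7, with CALR as the exception, at 3.19 against 5.65. The exception was thus a different gene in each measure, and reads in replicate 2 were more numerous at the 5’-SS in 5 of the 8 genes. Peaks with the 3’-SS listed after another region are not in this count, among them those of CDK16, H2AFZ and SMARCC2 shown above. In each of those introns the log2 fold was higher on the 3’ side, and in an intron of TOP3B it was higher on the 5’ side. The direction in the 8 genes therefore does not extend to all genes with peaks on both sides.

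The 15 peaks that covered the 5’-SS and 3’-SS windows with no proximal intron between them lay in introns of at most 201 nt, and 12.3% of all introns of main transcripts are that short. Their log2 folds ranged from 3.41 to 5.93. SLC3A2, the heavy chain of an amino acid transporter, was highest with 5.93, a replicate 1 log2 fold of 7.23 and 14 reads in replicate 2. HNRNPA3 followed with a log2 fold of 5.13, a replicate 1 log2 fold of 5.68 and 13 reads. PIM1, a kinase of hematopoietic cells, and SLC4A2, an anion exchanger, had 2 such peaks each. The PIM1 peaks had log2 folds of 3.49 and 4.53 and replicate 1 log2 folds of 4.55 and 5.58. HSPA5, the main chaperone of the endoplasmic reticulum, had 79 reads in replicate 2, the most of this type, with a log2 fold of 3.72.

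Among transcripts of splicing factors, splice site peaks were counted by role. Over all 432 gene entries with a peak, 39.6% had a splice site peak, and 25.1% of all peaks were splice site peaks, which are the values to read the lists against. No list was tested. Factors of 5’-SS recognition had a splice site peak in 2 of the 4 genes with any peak: LUC7L and PRPF39, which is a U1 snRNP partner with a log2 fold of 4.22, a replicate 1 log2 fold of 4.55 and 19 reads in replicate 2. Factors of branch point and 3’-SS recognition had one in 5 of 8 genes, with 4 5’-SS peaks and 2 3’-SS peaks. U2AF1, the subunit of U2AF that reads the AG, had 2 5’-SS peaks with log2 folds of 3.22 and 3.65, where replicate 1 log2 folds were 2.12 and 3.86 and replicate 2 held 20 and 53 reads. RBM17 itself had a 3’-SS peak at chr10:6150562-6150647 with a log2 fold of 3.15, a replicate 1 log2 fold of 3.31 and 16 reads in replicate 2. DHX38, the helicase of the step before exon ligation, had a 3’-SS peak with a log2 fold of 3.69. DDX46, a helicase of U2 snRNP joining, had a 5’-SS peak with 3.30, and RBM39 had one with 3.99.

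SR and SR-like proteins had a splice site peak in 10 of 11 genes with a peak (90.9%), with 12 peaks at the 5’-SS and 1, in SREK1, at the 3’-SS. Splice site peaks were 36.1% of all their peaks, and their median log2 fold was 3.63. PNN had the highest log2 fold of the group, 4.72, with a replicate 1 log2 fold of 4.40 and 17 reads, and SRRM2 the lowest, 3.10, with 3.17 and 39 reads. SRSF6 had 3.85, with a replicate 1 log2 fold of 4.73 and 47 reads. The hnRNP genes had one in 11 of 17 (64.7%), with 15 peaks at the 5’-SS and 1, in HNRNPD, at the 3’-SS, and 28.6% of their peaks were at splice sites. HNRNPA2B1 held 96 reads in replicate 2 at its 5’-SS peak, with a log2 fold of 3.85 and a replicate 1 log2 fold of 4.51, and PTBP1 held 13 reads with 4.03 and 4.58. In a list of mRNA splicing factors taken from the paper, 20 of 36 genes with a peak had a splice site peak (55.6%), and 26.9% of their peaks were at splice sites, beside 25.1% of all peaks.

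Of the other lists, chaperones had a splice site peak in 7 of 8 genes, which held 54.5% of their peaks, 10 of them 5’-SS and 2 3’-SS peaks, with a median log2 fold of 4.60. The 3 abutting HSP90AA1 peaks are among these 12. TCP1, a subunit of the CCT chaperonin, had log2 folds of 3.66 and 4.51. Its replicate 1 log2 folds were 5.17 and 2.88 in the same order. Replicate 1 thus ranked the 2 TCP1 peaks the other way round from the combined value. Replicate 2 held 24 and 19 reads there, with no value over the input. Histone variants and HMG proteins had one in 4 of 5 genes, with 10 peaks, all at the 5’-SS, a median log2 fold of 4.14 and a median of 30 reads in replicate 2. The H2AFZ peaks had log2 folds of 4.35 and 3.37. Ribosomal protein genes had one in 5 of 12, of which RPL3 was highest with 4.97 and RPS25, with 3.32, was at the 3’-SS.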

How the data were processed

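RBM17 eCLIP in K562 cells was analysed from 2 replicates and the comparison with 1 input that the authors had made. The authors trimmed reads with cutadapt, mapped them with STAR and ran a published eCLIP pipeline (tools as named in the submitters' processing notes and the methods). The authors deposited reproducible peaks with combined values (−log10 p, then log2 fold against the input), replicate 1 clusters with the same 2 values (highest −log10 p 400), and replicate 2 clusters with the p-value of the peak caller, not relative to the input, and reads in the cluster name. Sample titles number the replicates 2 and 3 and descriptions 1 and 2, and the latter are used. The methods mention duplicates and, for sequencing, triplicates.

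Peaks were joined to the study's list of peak regions, from which genes and bases by region were taken. A peak took the cluster with the largest same-strand overlap (at least 1 bp) in each replicate. Exon edges were placed from the bases of a peak. On simulated peaks this gave 795 of 795 edges right, which checks the calculation only. It cannot show whether edges of real peaks are right, since simulated peaks need not follow the study's region list. In the real data, the spacing of placed edges fitted the main transcript in 25 of the 32 genes tried. Introns were matched by length or spacing within the GENCODE v44 canonical transcript, with hg38 sequence, and no position was converted between builds. Python 3.11.15, pandas 2.3.3, numpy 2.4.6, scipy 1.17.1 and matplotlib 3.10.9 were used.

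The members and gene lists were chosen with earlier results of these data known. Named genes were those with 2 or more splice site peaks or with both sites, the 5 highest log2 folds at each site, spanning peaks, the placed peaks nearest to and farthest from an exon end, and members of the splicing lists. Genes outside this rule (MED13, TMEM63A, COCH, ACTB, SLC3A2, HDAC6, MLLT10, CDK16, SMARCC2 and others in single examples) were named after their values were seen. A few items are not reported here. Alternatives were other region rules, stricter thresholds, 1 peak a gene, merged peaks, other overlaps and leaving out a replicate.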

Additional observations from a re-analysis of the deposited data

How the results depend on the processing

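Of 69 alternative values, 56 stayed within the interval of the value in the report or, for the share of exonic bases, within 1.5 times of it. The 56 include all values with a replicate left out, which could not move. They also include the 100% of peaks with a cluster in both replicates at stricter thresholds, which holds by construction. The count of 56 thus overstates the stability. The order of the median folds of the sites turned with both other region rules, and that of their replicate 2 reads for peaks whose log2 fold reached 4. The share of splice site peaks at the 5’-SS moved to 65.8% with the region of most bases and to 61.1% with any listed splice site, and with the region of most bases 3.66% of 5’-SS peak bases were exonic. With peaks whose log2 fold reached 4, 6.10% of 5’-SS peak bases were exonic, 8.24% of 5’-SS peaks crossed the exon end and 24.6% of peaks with a 3’-SS crossed the exon start. There, median log2 folds were 4.58 for 5’-SS and 4.45 for 3’-SS peaks, replicate 1 medians were 4.71 and 4.65, and 3’-SS peaks had a median of 15 replicate 2 reads. A higher threshold raises the folds by construction. With a −log10 p of at least 5, 5’-SS peaks had a median of 30 reads, and with an overlap of at least 50% of the peak, 84.8% had a cluster in both replicates. The peak list could not be made again from 1 replicate, so leaving a replicate out gave the same values by construction and shows nothing of their stability. No paired analysis was possible because 1 condition was measured. The depth of replicate 1 is unknown.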
